A study of Mus musculus with 6 samples.

Results

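Hlf, Mecom, Nkx2-3, Mycn, Mllt3, Procr, Slamf1, Fgd5, Gcnt2 and Ctnnal1 are 10 genes known as marks of the blood stem cell, and they were followed from stem cells to their progeny in mouse bone marrow with and without Txnip. They were taken by symbol from the 31253 features of the count tables, and each symbol matched 1 feature. The cells came from 3 Txnip knock-out (Txnip-KO) and 3 wild-type (WT) samples of marrow that was flushed, enriched and sorted, and their RNA was sequenced cell by cell. Both groups are described by genotype alone: the labels give no age, sex, strain, treatment or deleted region and do not name the sorted population. Nor do they tie the replicates to different mice, and a p-value here sets the groups against a spread between samples that may be technical.

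A blood stem cell keeps a small set of transcription factors and surface proteins that fade as its daughters become multipotent progenitors and then commit to a lineage. Several of the 10 genes are used to sort these cells or to tag them with reporters, and others are needed for self-renewal. A rise over whole marrow can come with more stem cells, with more transcript in each stem cell, or with transcript in the daughters, and cells were placed in types by other markers to describe each.

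Across samples, 6973 to 9063 barcodes held 61368478 to 80876483 unique molecular identifiers (UMIs, 1 per captured transcript), and 41513 cells were kept. The median UMIs per kept cell was 8189, 7834 and 6936 in Txnip-KO 1, 2 and 3, against 8923, 9197 and 8931.5 in WT 1, 2 and 3. Txnip, which encodes thioredoxin-interacting protein, stood at 10.8, 9.55 and 0.459 CPM (a gene's UMIs scaled to a fixed total per sample, as counts per 1000000) in Txnip-KO samples, against 306, 209 and 270 CPM in WT samples. The deleted part of the gene is not given, so 3' counts need not lie inside it. Txnip-KO 3 held far less Txnip than Txnip-KO 1 and 2, also in the stem gate described below (0.18 against 16.1 and 16.4 CPM). The reason for this difference was not tested. Of the kept barcodes, 163 occurred in more than 1 library. Each cell was scored for the markers of 16 cell types, none of them one of the 10 genes, and was placed in a gate where its best score was at least 0.35 and led the next by at least 0.2. The thresholds were set after the data were seen. The stem gate used 9 markers, among them Ly6a, Esam, Tie1, Tek, Pdzk1ip1, Angpt1, Cdkn1c and Ifitm1. Of the 9, 7 were at least 1 log2 unit higher in its cells than in the others, and its cells also carried Kit and Cd34, at 365 and 424 CPM in Txnip-KO and 272 and 383 CPM in WT. Next to it, the multipotent gate (Flt3, Dntt, Il12a and 4 more) holds multipotent or lymphoid-primed progenitors, and the GM gate (Elane, Mpo, Prtn3 and 6 more) holds granulocyte-monocyte progenitors. Cd34 was higher in these, at 527 CPM in Txnip-KO and 409 in WT in the multipotent gate and 499 and 456 in the GM gate. Kit stood at 308 CPM in Txnip-KO and 210 in WT erythroid cells. Kit and Cd34 thus do not single out stem cells, and the 9 stem markers set the stem gate, so their rise in it is no separate check. A gate for endothelial cells had 4 of its 10 markers raised and 1 UMI of Cdh5 over its cells, so it was not treated as endothelial and was not compared.

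The promoters of 3 genes are shown because these genes mark the 3 outcomes described below. Hlf rose in the stem gate, Fgd5 had the largest rise in the multipotent gate, and Mycn fell. Each run is the 250 bases before the transcription start in RefSeq (GRCm38.p6), read 5′ to 3′ on the strand of the gene, with the motifs found in capitals.
Hlf: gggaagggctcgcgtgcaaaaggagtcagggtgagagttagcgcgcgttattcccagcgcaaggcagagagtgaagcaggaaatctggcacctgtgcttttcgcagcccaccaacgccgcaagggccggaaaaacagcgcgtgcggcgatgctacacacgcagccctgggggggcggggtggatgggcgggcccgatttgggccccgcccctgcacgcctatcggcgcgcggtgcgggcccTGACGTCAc
Fgd5: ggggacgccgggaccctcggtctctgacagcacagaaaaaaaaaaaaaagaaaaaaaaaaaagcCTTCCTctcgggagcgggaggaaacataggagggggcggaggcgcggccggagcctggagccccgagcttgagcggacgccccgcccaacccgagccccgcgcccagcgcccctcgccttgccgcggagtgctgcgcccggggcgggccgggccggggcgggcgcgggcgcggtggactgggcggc
Mycn: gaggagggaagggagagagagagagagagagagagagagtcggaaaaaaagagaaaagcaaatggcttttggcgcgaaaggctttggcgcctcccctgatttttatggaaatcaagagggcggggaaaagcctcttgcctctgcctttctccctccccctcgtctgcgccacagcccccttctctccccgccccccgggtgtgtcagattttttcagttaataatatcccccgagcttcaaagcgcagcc
They lie at chr11:90390918-90391167 on the minus strand, chr6:91978715-91978964 on the plus strand and chr12:12941837-12942086 on the minus strand. In 14 promoters of the 10 genes, both strands were searched for 7 motifs. AGATAA is bound by factors of the Gata2 family. CACGTG is the E-box of the Myc family. AGGAAG is read by the Ets family and TGTGGT by Runx1 and its relatives. GTAAACA belongs to the Foxo factors. TTACNTAA is the motif of the PAR bZIP family, which includes Hlf. TGACGTCA, the cyclic AMP response element, was added after the sequences were seen. The capitals in Hlf are TGACGTCA, 9 bases from the start, a motif in 1.55% of 32851 mouse promoters of this length. The capitals in Fgd5 are the ETS motif on the other strand, which 29.5% of promoters hold. Slamf1 held the ETS motif too, and the other promoters of the 10 genes, those of Mycn included, held none of the 7. No motifs overlapped, and no match says only that these letters are not in this window.

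In WT marrow the 10 genes marked the stem gate above every other compared gate. Summed, they stood at 944 ± 23.2 CPM in the WT stem gate (SD, n = 3), 315 ± 34.7 in cells of no gate, 262 ± 55.5 in innate lymphoid cells, 252 ± 9.08 in the multipotent gate, 238 ± 2.26 in megakaryocytic cells, 110 ± 4.55 in erythroid cells and 89.1 ± 6.29 in the GM gate. The innate lymphoid samples overlapped those of the cells of no gate, the multipotent gate and the megakaryocytic gate, so their place in this order is not resolved, and neutrophils, at 120 ± 77.2, overlapped several gates. The lowest sum was 17.4 ± 6.02 CPM, in plasmacytoid dendritic cells. Hlf made up 422 ± 25.2 of the 944 CPM and Gcnt2 175 ± 7.58. The genes did not share 1 pattern below the stem gate. Mycn was about as high in WT megakaryocytic cells (82.4 ± 3.0 CPM) as in the WT stem gate (79.4 ± 11.0), and Slamf1 and Ctnnal1 were higher in megakaryocytic than in stem cells. Slamf1 also stood at 20.6 ± 1.17 CPM in WT erythroid cells, against 7.67 ± 0.562 CPM in the WT stem gate. Mllt3 kept 52.4 ± 6.31 CPM in NK cells, where Hlf stood at 1.07 ± 0.816 CPM. Hlf was at 139 ± 41.7 CPM in WT innate lymphoid cells, above its 94.0 ± 8.47 CPM in the multipotent gate, although their samples overlapped.

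**Figure D1:**
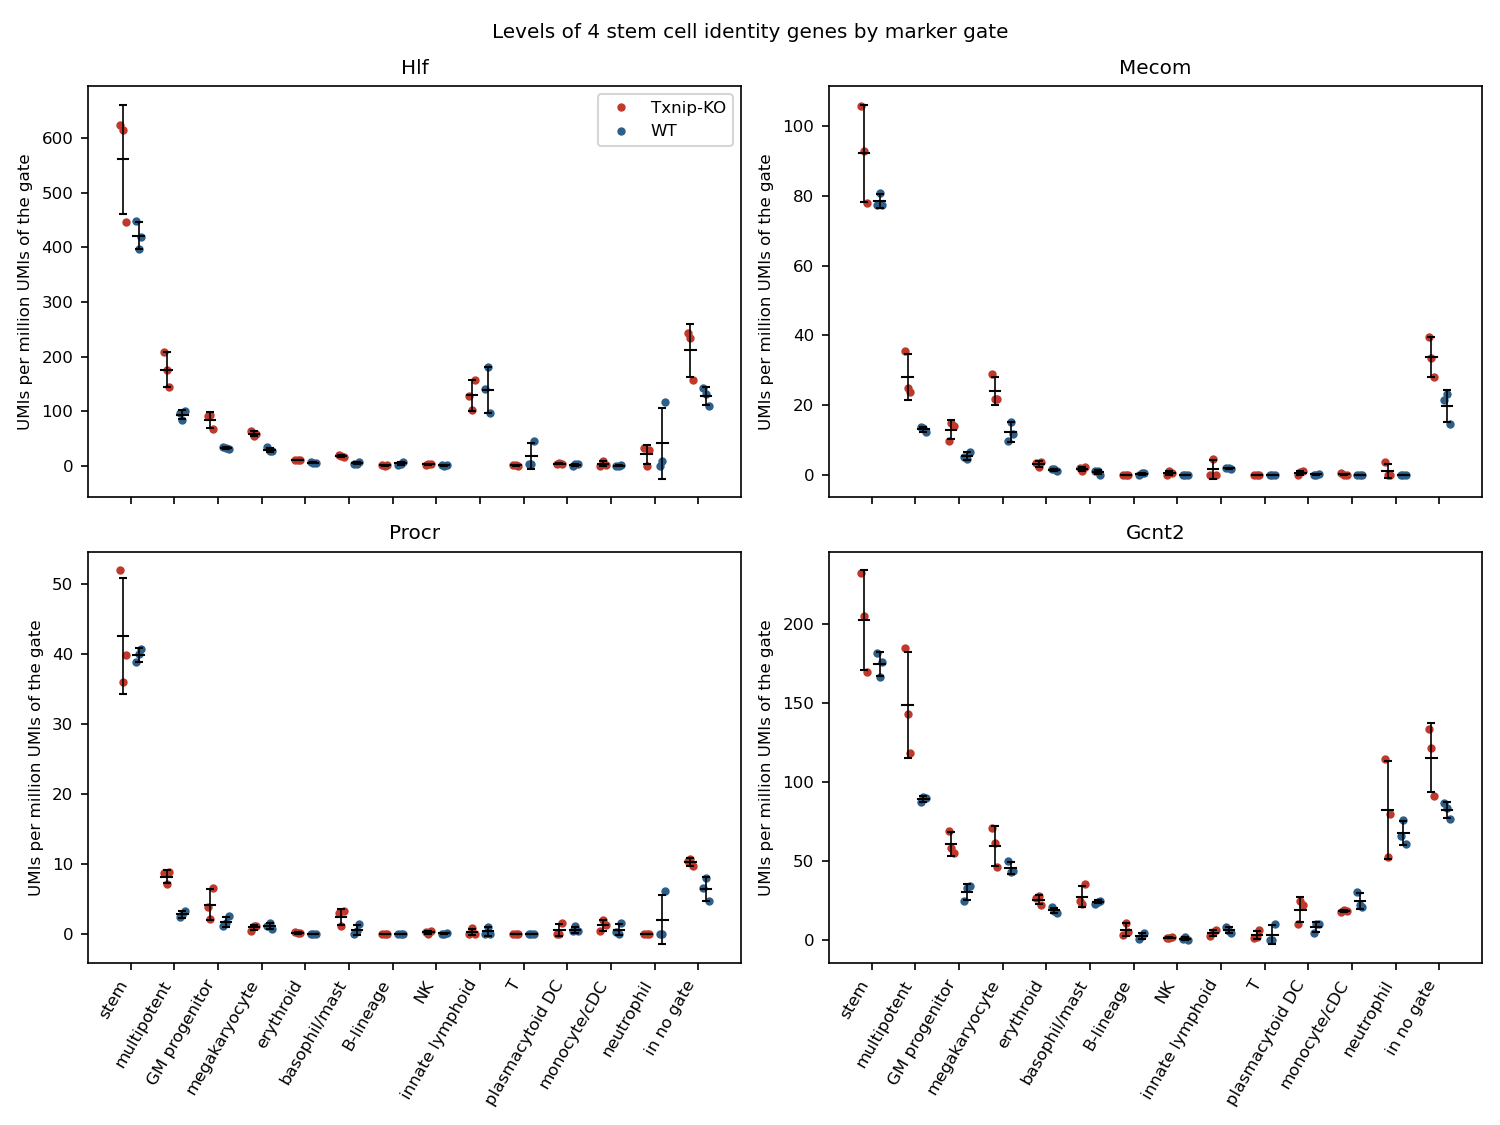
CPM within the gate for Hlf, Mecom, Procr and Gcnt2 in 13 marker gates and in cells of no gate; points are samples, long ticks are means and bars are SD (n = 3 each). In the stem gate the groups overlap for each of the 4 genes, and in the multipotent gate all 3 Txnip-KO samples lie above all 3 WT samples.

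Before cells were split by type, 7 of the 10 genes were higher in Txnip-KO. These were Fgd5 (log2 fold change 1.497, SE 0.21), Mecom (0.91, SE 0.14), Hlf (0.89, SE 0.16), Nkx2-3 (0.85, SE 0.25), Procr (0.81, SE 0.12), Gcnt2 (0.61, SE 0.12) and Mllt3 (0.60, SE 0.10), with edgeR adjusted p between 0.00182 and 0.0271. The other 3 did not pass the test: Slamf1 0.24 (SE 0.14), Mycn 0.07 (SE 0.11) and Ctnnal1 -0.21 (SE 0.23). In the same fit 21.6% of 14651 genes tested were called higher, and the median change was 0.71 over the 10 genes and 0.04 over all genes tested. Hlf stood at 172, 167 and 111 CPM in Txnip-KO 1, 2 and 3, against 86.2, 70.8 and 68.7 CPM in WT 1, 2 and 3, so the groups did not overlap and Txnip-KO 3 was the lowest of its group. Txnip-KO samples also held a larger share of cells in the stem gate, 10.3%, 10.7% and 8.23% of kept cells in Txnip-KO samples, against 6.62%, 5.66% and 4.90% in WT samples (2088 and 1140 cells). On the log2 scale the share was 0.77 higher (edgeR on cell numbers, adjusted p = 0.0391; two-sided exact permutation test, p = 0.1, which is the lowest value possible with 3 samples a side). The call was lost without any 1 WT sample (adjusted p 0.0565 to 0.172) and with a stricter gate. A sort can set such shares, and the sorted population is not named.

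Inside the stem gate, 1 of the 10 genes was higher in Txnip-KO and 1 was lower. Among all genes tested there, 12.8% were called higher and 13.4% lower, so 1 of 10 in either direction is close to the background. In simulated counts with a set spread between samples, this test recovered 22% of genes changed 1.5-fold and 91.5% of those changed 2-fold. A gene without a call may thus still have changed by a small amount. Hlf, a PAR bZIP transcription factor, was the gene that rose. It stood at 624, 615 and 447 CPM in Txnip-KO 1, 2 and 3, against 448, 398 and 419 CPM in WT 1, 2 and 3. Txnip-KO 1 and 2 were well above the WT samples, and Txnip-KO 3 lay just below WT 1, the highest WT sample. The log2 fold change of Hlf was 0.34 (SE 0.10; edgeR adjusted p = 0.0230), and the call was lost without Txnip-KO 1, Txnip-KO 2, WT 2 or WT 3 (0.25 to 0.35, adjusted p 0.0603 to 0.143). Mycn, a Myc-family transcription factor, stood at 66.4, 48.1 and 62.6 CPM in Txnip-KO samples, against 66.7, 86.8 and 84.6 CPM in WT samples. All Txnip-KO samples were below all WT samples, Txnip-KO 1 by a small margin, and the log2 fold change was -0.50 (SE 0.12; edgeR adjusted p = 0.00746), a call lost without WT 2 (-0.44, adjusted p = 0.0571).

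The other transcription regulators of the set did not pass the test in the stem gate. Mecom, a zinc finger factor needed for stem cell self-renewal, stood at 106, 93.0 and 78.1 CPM in Txnip-KO samples, against 77.6, 80.9 and 77.4 CPM in WT samples, a log2 fold change of 0.16 (SE 0.10). Nkx2-3, a homeobox factor, had 72.1, 56.0 and 38.7 CPM in Txnip-KO samples, against 46.1, 56.5 and 48.4 CPM in WT samples, a change of 0.07 (SE 0.15). Mllt3, which binds acylated histones and recruits elongation factors and Dot1l, changed by 0.14 (SE 0.11). For Mecom and Nkx2-3 the Txnip-KO samples spread more widely than the WT samples, with Txnip-KO 1 highest and Txnip-KO 3 lowest. Of the surface proteins, Procr, the endothelial protein C receptor used to sort stem cells, stood at 51.9, 35.9 and 39.8 CPM in Txnip-KO samples, against 38.8, 40.0 and 40.7 CPM in WT samples. Its change was 0.02 (SE 0.12), and that of Slamf1, the receptor CD150, was -0.01 (SE 0.23). Fgd5, an exchange factor that activates Cdc42, had 77, 82 and 59 UMIs in Txnip-KO samples, against 43, 36 and 26 in WT samples, which is 11.6, 11.1 and 10.6 CPM in Txnip-KO and 8.51, 7.91 and 6.92 CPM in WT. Its groups did not overlap, and its change of 0.43 (SE 0.18) had an edgeR adjusted p of 0.0913. Gcnt2, a glycosyltransferase that branches sugar chains, changed by 0.14 (SE 0.09), and Ctnnal1, an alpha-catenin relative, by -0.40 (SE 0.23). All 10 genes passed the filter on low counts, and their median change was 0.10, against 0.02 over all genes tested.

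In the multipotent gate, 6 of the 10 genes were higher in Txnip-KO and Mycn was lower, where 21.3% of genes tested were called higher and 23.1% lower. Fgd5 had 20, 26 and 23 UMIs in Txnip-KO samples, against 2, 4 and 4 in WT samples, a log2 fold change of 2.80 (SE 0.38; edgeR adjusted p = 1.5e-04). These are few molecules, but no Txnip-KO sample was near a WT sample. Procr stood at 8.62, 7.04 and 8.83 CPM in Txnip-KO samples, against 2.38, 2.65 and 3.26 CPM in WT samples (1.42, SE 0.20). Mecom stood at 35.7, 24.8 and 23.9 CPM in Txnip-KO samples, against 13.6, 13.3 and 12.2 CPM in WT samples (0.97, SE 0.14). The 3 genes were separated between groups, as were the next 3. Hlf stood at 209, 175 and 144 CPM in Txnip-KO samples, against 97.2, 84.4 and 100.4 CPM in WT samples (0.78, SE 0.11). Nkx2-3 stood at 36.9, 23.7 and 16.6 CPM in Txnip-KO samples, against 14.7, 11.2 and 10.4 CPM in WT samples (0.94, SE 0.22). Gcnt2 stood at 185, 144 and 119 CPM in Txnip-KO samples, against 87.4, 90.9 and 90.3 CPM in WT samples (0.60, SE 0.12). For Hlf, Gcnt2 and Nkx2-3, Txnip-KO 1 was the highest sample and Txnip-KO 3 the lowest of its group. Mycn had a log2 fold change of -0.52 (SE 0.17; edgeR adjusted p = 0.0263), Mllt3 of 0.29 (SE 0.12; adjusted p = 0.0688) and Ctnnal1 of -0.01 (SE 0.28). Slamf1, with 28 UMIs in all Txnip-KO samples and 26 in all WT samples, did not pass the filter on low counts.

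In the GM gate, 6 of the 10 genes were higher, where 19.5% of genes tested were called higher. Hlf stood at 90.9, 93.8 and 67.6 CPM in Txnip-KO samples, against 34.3, 32.1 and 30.9 CPM in WT samples, a log2 fold change of 1.18 (SE 0.11; edgeR adjusted p = 1.4e-06). Mllt3 stood at 14.8, 18.8 and 18.9 CPM in Txnip-KO samples, against 7.99, 7.84 and 8.13 CPM in WT samples (0.96, SE 0.15). Mecom (1.10, SE 0.21), Gcnt2 (0.78, SE 0.11), Nkx2-3 (1.48, SE 0.37) and Slamf1 (1.29, SE 0.43) also passed the test. Slamf1 rests on 33 UMIs in Txnip-KO and 20 in WT. Procr had an edgeR adjusted p of 0.0522 (1.01, SE 0.40), Fgd5 did not pass the filter on low counts, and Mycn (-0.44, SE 0.30) and Ctnnal1 (-0.88, SE 0.38) did not pass the test. TMM scaling, which sets library factors by the bulk of genes, raised the Txnip-KO factors over WT by 0.10 over all kept cells, 0.08 in the stem gate, 0.12 in the multipotent gate and 0.20 in the GM gate on the log2 scale, and fold changes are relative to it.

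**Figure D2:**
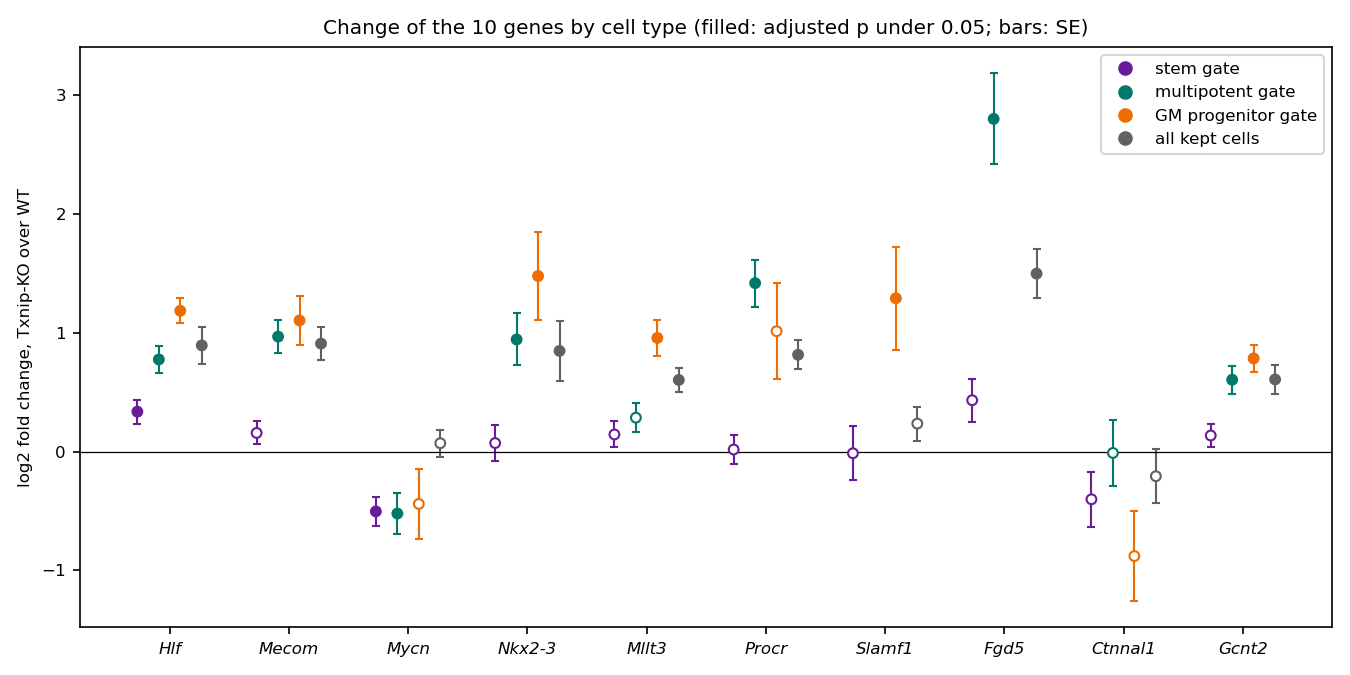
Log2 fold change of each gene, Txnip-KO over WT, in the stem, multipotent and GM progenitor gates and over all kept cells; bars are SE and filled points passed an edgeR adjusted p of 0.05. Hlf and Mycn are the filled points of the stem gate, at 0.34 and -0.50, while Fgd5 reaches 2.80 in the multipotent gate.

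Several of the 10 genes also rose further along the red cell and platelet lineages. In erythroid cells Mecom (1.11, SE 0.31), Hlf (0.86, SE 0.15), Mllt3 (0.62, SE 0.12) and Gcnt2 (0.45, SE 0.12) were higher, where 15.7% of genes tested were. Hlf levels there were 11.3, 10.1 and 11.1 CPM in Txnip-KO samples, against 6.51, 5.62 and 5.95 CPM in WT samples, so the rise lay on a low level. Slamf1 (16.4 CPM in Txnip-KO and 20.6 in WT), Mycn (20.7 and 25.6) and Ctnnal1 (1.42 and 2.21) had lower erythroid means in Txnip-KO, with overlapping samples. Nkx2-3 (1.01 and 0.388 CPM) and Procr (0.151 and 0) had higher means, and Fgd5 had 1 UMI in each group. In megakaryocytic cells Hlf (0.92, SE 0.12), Mecom (0.92, SE 0.18), Mllt3 (0.49, SE 0.12) and Slamf1 (0.44, SE 0.15) were higher, where 12.5% of genes tested were. Hlf there stood at 63.1, 54.9 and 59.2 CPM in Txnip-KO samples, against 34.3, 27.9 and 27.0 CPM in WT samples. In basophil or mast cells Hlf rose by 1.71 (SE 0.32; 10.5% of genes called higher), with 72 UMIs in Txnip-KO and 37 in WT. In that gate Kit stood at 199 CPM in Txnip-KO and 40.9 CPM in WT, Cd34 at 119 CPM in Txnip-KO and 36.4 CPM in WT, and the median score of the gate's own markers was 1.81 in Txnip-KO and 2.44 in WT. Their part in the rise of Hlf was not tested. In plasmacytoid dendritic cells Gcnt2 rose by 1.08 (SE 0.33; 14.5% called higher). In innate lymphoid cells, where Hlf was high in both groups (129 ± 27.5 CPM in Txnip-KO and 139 ± 41.7 CPM in WT; SD, n = 3 each), its log2 fold change was -0.18 (SE 0.19), and, where 7.25% of genes tested were called in either direction, 0 of the 3 genes that passed the filter were called by edgeR, with 0 at an unadjusted p under 0.05. In NK cells Hlf had a change of 1.15 (SE 0.48; edgeR adjusted p = 0.0819; 13.9% of genes called higher) on 39 UMIs in Txnip-KO and 18 in WT. Hlf lay on the other side in B-lineage and T cells, where it did not pass the filter on low counts. It stood at 1.73, 0 and 1.68 CPM in Txnip-KO B-lineage cells (2 UMIs in all), against 2.56, 4.10 and 7.84 CPM in WT (31 UMIs). In T cells it stood at 1.59, 2.24 and 0 CPM in Txnip-KO (2 UMIs), against 2.94, 4.46 and 45.5 CPM in WT (16 UMIs, 13 of them in WT 3). All Txnip-KO samples were below all WT samples in both, on very few molecules and without a test. The B-lineage gate also differed in makeup. Its median score for the multipotent markers was -0.30 in Txnip-KO and 0.39 in WT, and its median depth was 3106.5 UMIs in Txnip-KO and 8290.5 in WT. The part of these in the lower Hlf was not tested. Cells of no gate had 6 of the 10 genes higher (Fgd5, Mllt3, Mecom, Hlf, Procr and Gcnt2), where 19.3% of genes tested were.

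Whether the change differed between the stem gate and other cells was tested by an interaction term (cell type by genotype). The fit blocks on sample. The other kept cells are not progeny alone: of the cells in clusters named stem, 1559 were in no gate and 418 in the multipotent gate. Nor did all 3228 stem-gate cells lie in such clusters. Of these, 2494 did, while 256 lay in granulocyte-monocyte progenitor clusters, 196 in megakaryocyte clusters and 183 in clusters without a type. Against all other kept cells, the signed log2 change in the stem gate was lower for 8 of the 10 genes, where 0.831% of 14082 genes tested were called in that direction. For Mycn this was the fall in the stem gate (-0.50) beside 0.11 (SE 0.12) in the other cells, which did not pass the test. The difference of log2 changes, stem gate minus other cells, was -1.48 (SE 0.27) for Fgd5, -0.99 (SE 0.17) for Procr, -0.88 (SE 0.15) for Nkx2-3 and -0.85 (SE 0.09) for Mecom. It was -0.61 (SE 0.10) for Mycn, -0.53 (SE 0.05) for Hlf, -0.46 (SE 0.07) for Gcnt2 and -0.45 (SE 0.10) for Mllt3, and the 8 edgeR adjusted p lay between 4.4e-05 and 0.0265. Hlf thus had a change of 0.34 (SE 0.10) in the stem gate beside 0.88 (SE 0.13) in all other cells, whose makeup also differed between groups, and with clusters in place of gates this difference was -0.22 and lost the call. Against the multipotent gate alone, the change in the stem gate was smaller for 6 genes (Fgd5, Procr, Nkx2-3, Mecom, Gcnt2 and Hlf; 4.31% of genes tested). The calls of Hlf (-0.23 to -0.20) and Fgd5 (-1.65 to -1.24) were lost without dividing cells, with clusters and with gates set on cells thinned to 3000 UMIs. Against the GM gate it was smaller for 5 (Nkx2-3, Mecom, Hlf, Mllt3 and Gcnt2; 2.21% of genes tested). Slamf1 and Ctnnal1 did not differ past the threshold in any of the 3 comparisons. With Leiden clusters in place of gates, 5 genes were called higher in the stem class (Fgd5 0.78, Hlf 0.44, Mllt3 0.28, Gcnt2 0.27 and Mecom 0.25), where 16.5% of genes tested were, and 4 of the 10 had a lower change than all other cells, where 0.863% did. That class was wider, with 3032 Txnip-KO and 1636 WT cells. With each cell thinned to 1000 UMIs, 1 gene (Hlf) had a lower change than all other cells (0.132% of genes tested) and, by edgeR, 0 had a lower one than the multipotent gate (0.186% of genes tested), with 4 at an unadjusted p under 0.05.

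The change was also followed along the stem score itself, the mean of the 9 scaled stem markers, in bands over all kept cells whatever their gate. In the band at 1 and above (1102 Txnip-KO and 516 WT cells), 0 of the 10 genes were called by edgeR, with Mycn alone at an unadjusted p under 0.05 (7.31% of genes tested were called higher and 7.1% lower). Hlf there stood at 523 ± 95.9 CPM in Txnip-KO and 468 ± 9.79 CPM in WT (SD, n = 3 each), a log2 fold change of 0.10 (SE 0.10). Mecom had -0.20 (SE 0.12), Procr -0.18 (SE 0.14), Nkx2-3 -0.19 (SE 0.15) and Mllt3 -0.22 (SE 0.12) in that band. In the band from 0.5 to 1, Hlf (0.51, SE 0.11), Mecom (0.50, SE 0.11) and Mllt3 (0.43, SE 0.12) were higher and Mycn (-0.30, SE 0.10) lower, where 13.2% of genes tested were higher and 15.3% lower. The 3 lower bands each had 5 of the 10 genes higher, where 14.7%, 15.5% and 16.2% of genes tested were, from the upper band to the lowest. Fgd5 moved most along the score. Its changes were 2.49 (SE 0.39) below 0, 1.38 (SE 0.32) from 0 to 0.25 and 1.15 (SE 0.30) from 0.25 to 0.5. They were 0.63 (SE 0.28) from 0.5 to 1 and 0.13 (SE 0.24) at 1 and above. The lower bands held few of its molecules, with 80 UMIs in Txnip-KO and 19 in WT below 0, 86 and 29 from 0 to 0.25, and 100 and 32 from 0.25 to 0.5. Differences between bands were not tested. The bands are set by the stem markers, so genes that vary with these markers have less room to differ within a band.

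**Figure D3:**
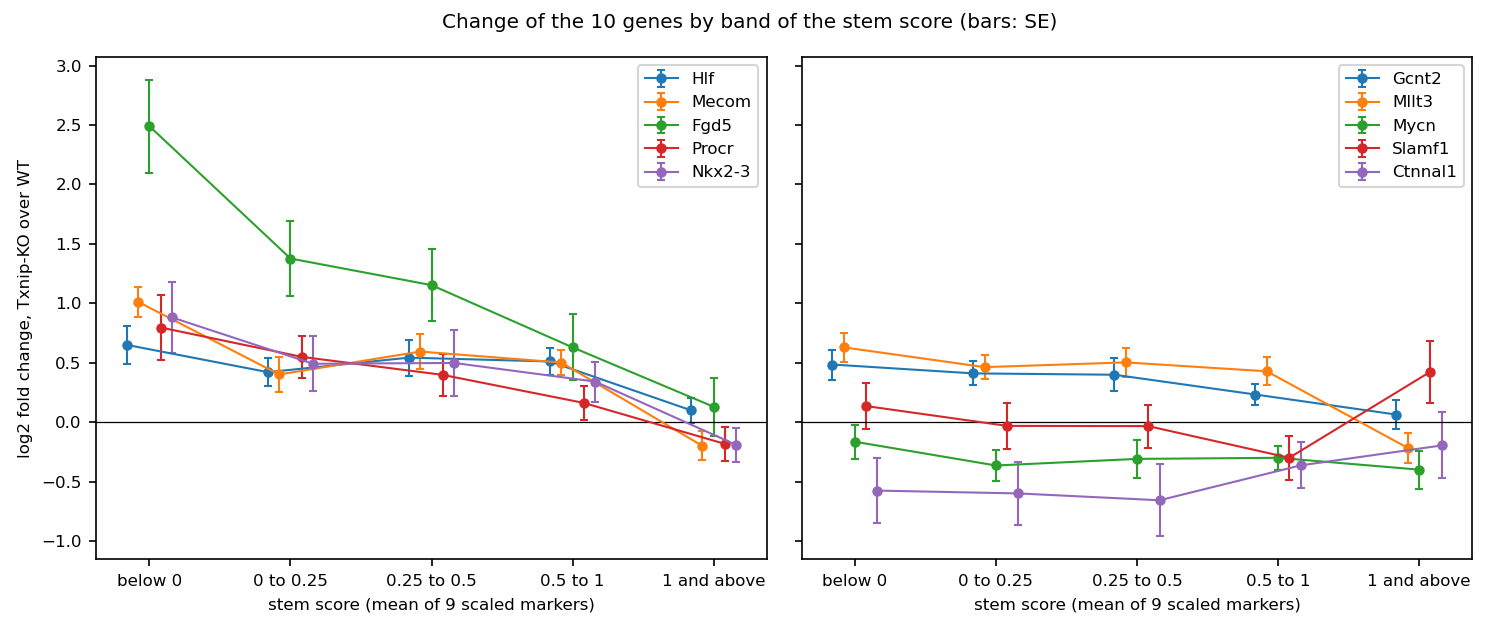
Log2 fold change of each gene, Txnip-KO over WT, in 5 bands of the stem score (x axis, low to high); bars are SE. Fgd5 runs from 2.49 in the lowest band to 0.13 in the highest, Hlf from 0.65 to 0.10 and Mecom from 1.01 to -0.20, while Mycn lies below 0 in every band. In the lowest band Fgd5 rests on 80 UMIs in Txnip-KO and 19 in WT.

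The stem markers moved with these changes. In the multipotent gate 6 of the 8 stem markers that passed the filter were also higher in Txnip-KO (median 0.95; Ifitm1 1.25, Ly6a 0.60), while in the stem gate 1 of 9 was higher (Esam, 0.44) and 1 lower (Cdkn1c, -0.92; median 0.08). The stem gate was set by the score of these 9 markers, so their small median change inside it was partly fixed by the gating. Genes that vary with the markers also had less room to differ there, and the size of this was not tested. The median stem score of multipotent-gate cells was -0.15 in Txnip-KO and -0.23 in WT, so the cells of that gate stood nearer the stem gate in Txnip-KO. With the cells of each sample weighted to the same mix of stem scores inside the gate, the same 6 genes were called higher in the multipotent gate, where 20.2% of genes tested were: Fgd5 2.34, Procr 0.93, Nkx2-3 0.63, Mecom 0.60, Gcnt2 0.43 and Hlf 0.36. The change of Hlf in that gate then was 0.36 beside 0.32 in the stem gate treated in the same way, and the difference between these was not tested. Among multipotent-gate cells with no UMI of any stem marker after thinning to 3000 UMIs (1220 Txnip-KO and 1386 WT cells), Mecom (0.91), Hlf (0.50) and Gcnt2 (0.46) were called higher, as were 18.6% of genes tested. Fgd5, Procr and Nkx2-3, called higher in the whole gate, were not called in these fewer cells. Among such cells of the GM gate (384 Txnip-KO and 670 WT cells), Mecom (1.46), Hlf (1.05), Mllt3 (0.86) and Gcnt2 (0.84) were, and 13.9% of genes tested. Cells with a UMI of Mki67 or Top2a, called dividing here, made up 26.4% of Txnip-KO cells against 35.9% in WT in the stem gate, 25.4% against 42.4% in WT in the multipotent gate and 63.6% against 76.0% in WT in the GM gate. Depth moved with these shares: the median was 8350 UMIs in Txnip-KO and 10927 in WT in the stem gate, and 12089.5 in Txnip-KO and 16757 in WT in the GM gate. With each cell thinned to 3000 UMIs the shares were 15.4% ± 0.23 in Txnip-KO and 18.3% ± 5.90 in WT in the stem gate, where the samples overlapped (SD, n = 3 each). In the multipotent gate they were 13.2% ± 0.60 in Txnip-KO and 22.7% ± 2.28 in WT, in the GM gate 40.9% ± 1.06 in Txnip-KO and 46.9% ± 4.65 in WT, and in NK cells 6.61% ± 0.99 in Txnip-KO and 6.40% ± 1.07 in WT. Without dividing cells, 6 genes were called higher in the multipotent gate (16.9% of genes tested) and 3 in the GM gate (12.5%). In the stem gate 3 of the 8 erythroid markers tested (median 1.02) and 1 of the 4 NK markers tested (median 0.89) were called higher, beside 12.8% of all genes tested, and their part in the result was not tested.

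The difference over all kept cells was split into the part that came with the makeup of gates and the part that came with levels inside gates. Both were averaged over the 9 pairs of 1 Txnip-KO and 1 WT sample. Makeup here is each gate's share of a sample's UMIs, so it moves with cell numbers and with depth per cell. Summed, the 10 genes differed by 154.7 CPM between Txnip-KO and WT. Of this, 35.9% came with makeup, 10.8% with the level inside the stem gate and 53.4% with levels in all other cells. The larger share of UMIs from the stem gate alone carried 28.05%. A shift in the kinds of cell inside a gate counts as level in this split. The median stem score of cells of no gate was 0.16 in Txnip-KO (3663 cells) and 0.021 in WT (2480 cells), and 1559 of the 6143 cells of no gate lay in clusters named stem. The cells of no gate gave 30.6 CPM and the multipotent gate 28.2 CPM of the level part, ahead of the stem gate with 16.7, the GM gate with 10.9 and megakaryocytic cells with 6.58 CPM. For Hlf, 33.4% came with makeup, 16.6% with the stem gate's level and 49.9% with levels elsewhere. On average Procr leaned most on makeup (45.8%) and Fgd5 least (22.3%) among the 7 genes called higher. The level part ranged over the 9 pairs from 32.7% to 82.3% for Procr and from 67.8% to 96.4% for Fgd5, so this order is not resolved. Over the 9 pairs the level part of the sum ranged between 58.1% and 73.1%, but for Nkx2-3 the pairs were too far apart to read (-537% to 78.1%). With all cells weighted to the same mix of gates, 6 of the 7 genes were still called higher, where 22.1% of genes tested were (Fgd5 1.05, Hlf 0.48, Mecom 0.48, Mllt3 0.35, Gcnt2 0.32 and Procr 0.32), and Nkx2-3 was not (0.41).

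**Figure D4:**
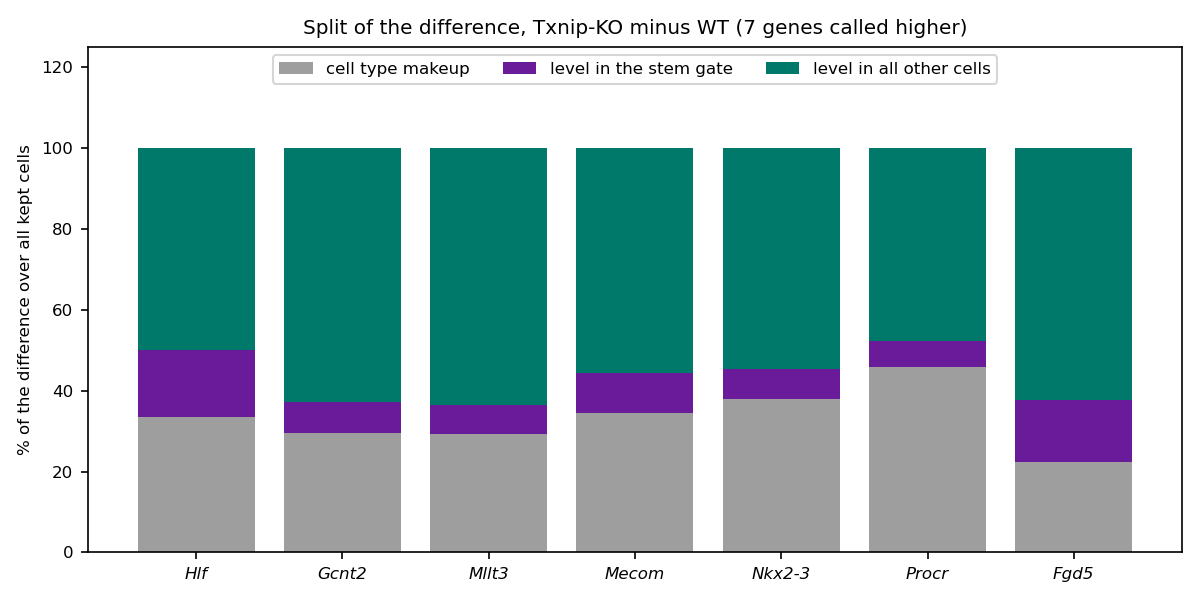
Share of the Txnip-KO minus WT difference in CPM over all kept cells that came with gate makeup, with the level in the stem gate and with levels in all other cells (stacked to 100%), for the 7 genes called higher. Levels outside the stem gate make up 47.6% (Procr) to 63.5% (Mllt3) of each bar.

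Cell by cell, Hlf was detected in more cells of the multipotent and GM gates and in larger numbers. In the multipotent gate, 418 cells lay in clusters named stem, and their part in this was not tested. With each cell thinned to 3000 UMIs, 71.3% of Txnip-KO and 81.5% of WT multipotent-gate cells held no Hlf UMI (means of 3 samples), and before thinning 49.2% of Txnip-KO and 37.0% of WT cells held at least 1. At 3 or more Hlf UMIs there were 8.58%, 8.99% and 6.96% of cells in Txnip-KO samples, against 4.56%, 2.28% and 4.01% in WT samples, with no overlap. In the stem gate 34.5%, 33.0% and 23.6% of cells in Txnip-KO samples held 3 or more Hlf UMIs, against 22.9%, 17.9% and 18.02% in WT samples, so Txnip-KO 3 was again near WT 1. In NK cells, which should lack Hlf, 99.2% of thinned Txnip-KO and 99.7% of thinned WT cells held none (median depth before thinning 3273 and 4424.5 UMIs, against 8845 and 12261 in the multipotent gate). By sample these were 99.15%, 99.18% and 99.24% in Txnip-KO, against 99.48%, 100% and 99.68% in WT. Hlf was thus rare in NK cells, yet more frequent in every Txnip-KO sample, and what this means for low-level rises in other gates was not tested. Thinning left out 1560 Txnip-KO and 520 WT NK cells, and 3 Txnip-KO and 7 WT cells of the GM gate. The mean number of the 10 genes detected per thinned cell was 2.12 in Txnip-KO and 1.96 in WT in the stem gate, 0.94 in Txnip-KO and 0.62 in WT in the multipotent gate, and 0.53 in Txnip-KO and 0.26 in WT in the GM gate.

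**Figure D5:**
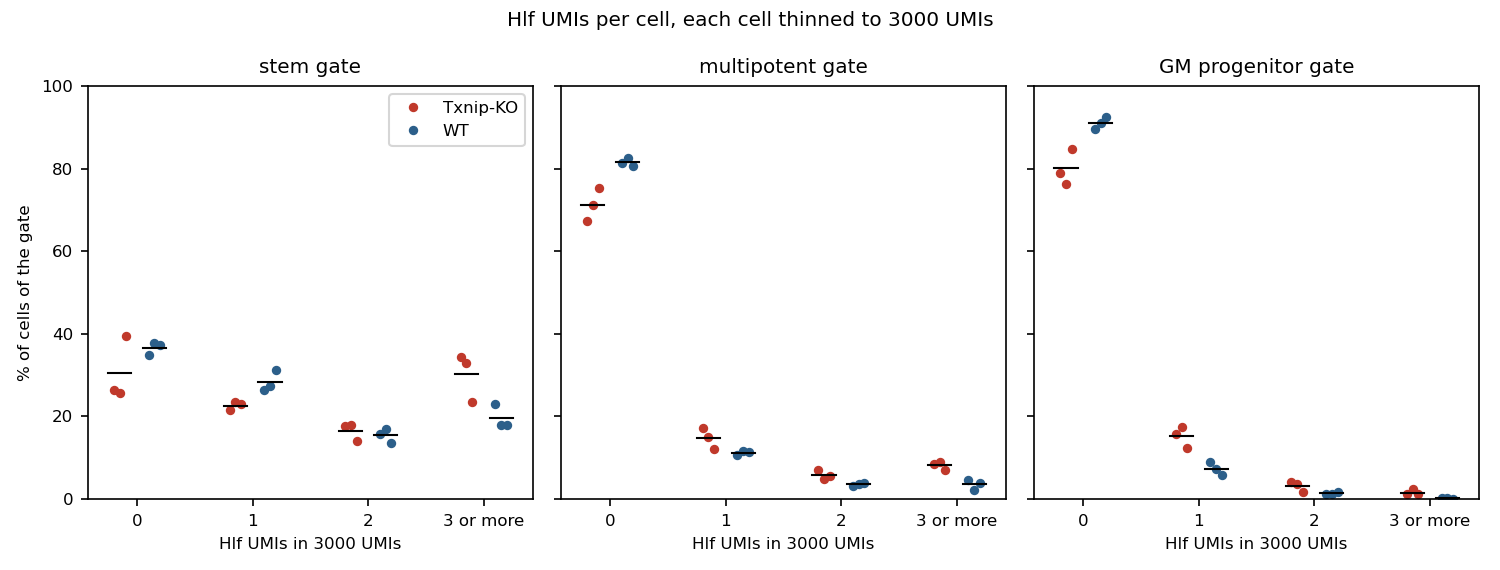
Percent of cells of each gate with 0, 1, 2 or 3 or more Hlf UMIs after thinning to 3000 UMIs; points are samples and ticks are means (n = 3 each). In the multipotent and GM progenitor gates every Txnip-KO sample has a smaller share of cells without Hlf than every WT sample, and in the stem gate Txnip-KO 3 has the largest share.

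Other genes of stem cells were read in the same fits. Of 38 stem regulators, 14 were higher and 3 lower in the Txnip-KO stem gate (36 tested, median 0.30), and 20 were higher and 2 lower in the multipotent gate (34 tested, median 0.43). Gata2, a factor of stem and progenitor cells, stood at 207, 181 and 209 CPM in Txnip-KO stem-gate samples, against 122, 117 and 116 CPM in WT samples (0.68, SE 0.09), and Runx1 rose by 0.54 (SE 0.08). Socs2, a brake on cytokine signalling, fell by 1.57 (SE 0.20), and Ndn, linked to quiescence, fell by 1.13 (SE 0.20). Of 23 surface and adhesion genes, 6 were higher and 0 lower in the stem gate (19 tested, median 0.18), led by the integrins Itga6 (0.66, SE 0.09) and Itgb3 (1.79, SE 0.33), the adhesion protein Selp (1.22, SE 0.25) and the chemokine receptor Cxcr4 (0.75, SE 0.16), and 11 were higher in the multipotent gate (15 tested, median 0.69). Of 18 multipotent progenitor genes, 7 were higher and 0 lower in the stem gate (median 0.23), led by the chemokine Ccl9 (1.75, SE 0.16), the cell cycle kinase Cdk6 (0.74, SE 0.08) and Tespa1 (0.81, SE 0.13). Of 44 relatives and partners of the identity genes, 11 were higher and 3 lower in the stem gate (34 tested, median 0.16). Among them were the Slamf1 relatives Cd244a (0.92, SE 0.14) and Cd84 (0.44, SE 0.09), and Aff1 (0.52, SE 0.12) and Aff4 (0.43, SE 0.10), partners of Mllt3 in elongation complexes. The background of the stem gate for these counts is 12.8% higher and 13.4% lower, and that of the multipotent gate 21.3% and 23.1%.

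Among 8117 other genes, the 10 whose WT levels over the 14 gates were most like those of the summed identity genes had Pearson correlations of 0.83 to 0.91 on log2(CPM + 10). This is a description over gates that share libraries. They included Sall2 (0.91), Armcx1, Ube2e2, Gstm7, Per3, Hbb-bt (itself a gate marker), Vldlr, Rida and Senp8. In Txnip-KO they parted. Sall2, a zinc finger factor, changed by 0.43 (SE 0.16; edgeR adjusted p = 0.0645) in the stem gate, by 0.92 (SE 0.20) in the multipotent gate and by 1.77 (SE 0.30) in the GM gate. Gstm7, Rida and Senp8 fell in the stem gate, by 0.61 (SE 0.18), 0.42 (SE 0.13) and 0.58 (SE 0.18), and did not pass the test in the multipotent gate.

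Antisense genes listed in the files overlap Mecom (Mecomos), Fgd5 (4930466I24Rik) and Gcnt2 (Gm31683 and A730081D07Rik) in GENCODE M21. The sources used here do not state if reads were counted by strand, so the counts of these 3 genes are less certain than those of the others. The 10 genes lie on chromosomes 1 (Slamf1), 2 (Procr), 3 (Mecom), 4 (Mllt3 and Ctnnal1), 6 (Fgd5), 11 (Hlf), 12 (Mycn), 13 (Gcnt2) and 19 (Nkx2-3).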

How the data were processed

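Bone marrow cells of 3 Txnip-KO and 3 WT samples were profiled with 10x Genomics 3' kits, per the labels' protocols. The deposited files hold UMI counts per gene and barcode, not normalized, made by the authors with Cell Ranger 6.1.1, per the file headers; CASAVA 1.8 and Seurat 2.3.4 are listed as well in the submitters' processing notes. No build is named in the sources used here; 31107 of 31253 gene identifiers were found in GENCODE M21 (GRCm38).

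Of 48277 barcodes, those with at least 500 genes, at least 1000 UMIs and at most 10% mitochondrial UMIs were kept (44399), and the 2886 with the highest Scrublet scores were removed as doublets (0.8% per 1000 barcodes). Cells were gated by the mean of marker genes scaled on log counts per 10000, clipped at 4 SD. The markers were listed without the 10 genes, and the thresholds were set with the data in view. Gates with at least 20 cells in each sample were compared. Counts were summed per sample and gate and tested with the edgeR quasi-likelihood test (filterByExpr, TMM, Benjamini-Hochberg adjustment over all genes tested, threshold 0.05). SEs are the fold change over the root of F. Scripts were tested on simulated data, where the interaction against all other kept cells recovered 3% of genes changed 1.5-fold in the stem gate alone.

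The 10 genes and the other lists were chosen with earlier results of these data known. Named genes are the 10, Txnip, the 4 genes with the smallest p of each list in the stem gate, the 10 most like the summed 10 over gates, and the markers that moved. A few genes that this rule names are not reported here. The GM gate as a compared type, the mix of scores in the 2 progeny gates, cells with no stem marker UMI and gates at 3000 UMIs were added after the data were seen. Alternatives were DESeq2, no filter on low counts, no doublet removal, a stricter cell filter, thinning to 1000 or 3000 UMIs, a stricter gate, clusters, no dividing cells, equal mixes of bands or gates, no stem marker UMI, the replicate block and leaving out each sample. scanpy 1.11.5 and Python 3.11.15 were used with R 4.3.3, edgeR 4.0.16 and DESeq2 1.42.0. Intervals and SEs cover these samples only.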

Additional observations from a re-analysis of the deposited data

Results flagged for a closer look

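The change in Txnip-KO over WT differed between the stem gate and other cells in 19 tests by the interaction of cell type and genotype (edgeR), each a lower signed log2 change in the stem gate. Against all other kept cells the difference was -0.53 for Hlf, -0.85 for Mecom, -0.99 for Procr, -0.45 for Mllt3, -1.48 for Fgd5, -0.61 for Mycn, -0.46 for Gcnt2 and -0.88 for Nkx2-3. For Mycn this is a fall in the stem gate (-0.50) beside 0.11 (SE 0.12) in the other cells, a value that did not pass the test. Against the multipotent gate it was -0.51 for Hlf, -0.88 for Mecom, -1.49 for Procr, -2.41 for Fgd5, -0.54 for Gcnt2 and -0.95 for Nkx2-3. With the same mix of stem scores inside each gate the change of Hlf was 0.36 in the multipotent gate and 0.32 in the stem gate, a difference that was not tested. Against the GM gate it was -0.83 for Hlf, -0.96 for Mecom, -0.80 for Mllt3, -0.64 for Gcnt2 and -1.43 for Nkx2-3.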

How the results depend on the processing

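Of 1046 values under alternatives, 907 kept direction and side of the threshold, 65 lost the call, 32 gained one and 42 changed sign; the cause was not tested. With cells thinned to 1000 UMIs, 482 genes were called in the stem gate (2944 otherwise), 2 of the 10 were higher in the multipotent gate and 1 in the GM gate, and the change differed for 1 gene against all other cells, 0 against the multipotent gate and 1 against the GM gate by edgeR (4 of the tested genes against the multipotent gate at an unadjusted p under 0.05). Thinning leaves fewer counts, so fewer genes could be tested. Clusters in place of gates gave 5 genes higher in the stem class and 4 that differed from all other cells. Cells with no stem marker UMI gave 3 higher in the multipotent gate. Without dividing cells 3 were higher in the GM gate and 1 differed from it. Gates on cells thinned to 3000 UMIs gave 5 that differed from all other cells, and DESeq2 gave 2 that differed from the GM gate. The larger stem-gate share was 0.73 with the stricter gate (adjusted p = 0.0678).

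Leaving out each sample in turn gave 1553 to 3287 genes called in the stem gate, 0 to 3 of the 10 higher there (Hlf alone stayed at an unadjusted p under 0.05 where the count was 0), 6 to 7 higher over all kept cells, 6 to 7 in the multipotent gate and 5 to 8 in the GM gate. The number whose change differed was 7 to 8 against all other cells, 6 to 6 against the multipotent gate and 5 to 6 against the GM gate, and the stem-gate share ranged from 0.67 to 0.88. Without WT 2 the genes called fell to 1553, and without Txnip-KO 3 Mecom and Mllt3 were called higher beside Hlf.

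Over the same leave-outs, these values without a call took both signs: in the stem gate Procr (-0.13 to 0.11), Slamf1 (-0.25 to 0.10) and Nkx2-3 (-0.13 to 0.25); in the multipotent gate Ctnnal1 (-0.22 to 0.13); over all kept cells Mycn (-0.0804 to 0.13) and Ctnnal1 (-0.44 to 0.0089); stem minus multipotent gate Mycn (-0.14 to 0.12) and Slamf1 (-0.58 to 0.45); and stem minus GM gate Mycn (-0.34 to 0.0288).

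Under other alternatives these changed sign. Procr in the stem gate was -0.22 with thinning and -0.00999 without doublet removal. Slamf1 there was 0.039 without doublet removal, 0.0779 with the stricter cell filter and 0.032 with the stricter gate. Nkx2-3 there was -0.18 with thinning. In the multipotent gate Mllt3 was -0.027 and Ctnnal1 0.49 in cells with no stem marker UMI, and Ctnnal1 was 0.0859 without doublet removal and 0.0512 with the stricter gate. Over all kept cells Mycn was -0.069 without dividing cells and -0.24 with the same mix of gates, which gave Slamf1 -0.0273. Stem gate minus other cells, Ctnnal1 was 0.73 with thinning. Stem minus multipotent gate, Mycn was 0.0502 with no filter on low counts, 0.0021 with DESeq2, 0.0188 with thinning, 0.23 without dividing cells, 0.0566 with the stricter gate and 0.11 with gates at 3000 UMIs, and Slamf1 was 0.33 without dividing cells. Stem minus GM gate, Mycn was 0.30 without dividing cells and 0.26 with the stricter gate, and Ctnnal1 was -0.0131 with clusters and -0.0481 with gates at 3000 UMIs.

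Over all kept cells, samples of the same number deviated together weakly, with correlations of 0.08, 0.11 and 0.06 for numbers 1, 2 and 3. Samples of unlike number had -0.11 to 0.02 there. In the stem gate the same numbers had 0.01, -0.0045 and -0.04, within the -0.07 to 0.06 of unlike numbers. The numbers were not used as pairs in the main fits, and whether they mark a batch was not tested. With the replicate block, 2956 genes were called in the stem gate and 6483 over all kept cells (6010 without it), and of the 10 genes 1, 6, 7 and 7 were higher in the stem gate, the multipotent gate, the GM gate (Procr added) and all kept cells. Depth limits Fgd5, Slamf1 and Ctnnal1, the rarest of the 10 in the stem gate.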
